A study of Mus musculus with 23 samples.

Results

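The experiment asked how the orbitofrontal cortex of mice given a ZBTB7A vector differed after a subthreshold defeat stress. It rests on 10 of the series' 23 bulk RNA-seq libraries, chosen by their labelled virus and stress condition. All were made from polyadenylated RNA of virally infected orbitofrontal cortex (OFC) of wild-type male C57BL/6J mice, with the age labelled as 8 weeks. In every group an AAV6 vector whose transgene is driven by the promoter of the astrocyte gene Gfap was injected into the OFC on day 0. In the ZBTB7A stress group (5 libraries) the vector overexpressed ZBTB7A together with GFP, and the mice met the defeat stress on day 21. In the ZBTB7A control group (5 libraries) the vector was the same and the stress condition was labelled control. The GFP stress group (8 libraries) and the GFP control group (5 libraries) received a GFP vector and are used here only for comparison. Mice of all groups were tested for sociability, preference for sucrose and behaviour in a forced swim from day 22 to day 27, and tissue was taken on day 28. One treatment label names the stress for control mice too, so the group was taken from the title and the stress condition label. The labels do not say that each library came from its own mouse, so the p-values measure the spread between samples.

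Social defeat, in which a mouse is exposed to a larger aggressor, is a common model of stress-related mood disorder, and a subthreshold version is kept short enough that untreated mice usually show little change in behaviour. The OFC is a prefrontal region that weighs the value of outcomes. Its astrocytes clear glutamate, supply neurons with metabolites and become reactive after injury or inflammation. ZBTB7A is a transcription factor with a BTB domain and zinc fingers that recruits corepressor complexes, and it is also known to aid transcription by NF-kB.

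Recovered whole reads were 44.9, 13.3, 24.6, 25.4 and 42.7 M (units of 1e6) in ZBTB7A stress 7, 9, 17, 25 and 26, against 12.5, 15.3, 15.5, 40.8 and 38.4 M in ZBTB7A control 6, 14, 15, 23 and 24. Libraries are named here by their group and title number, and values per library follow this order throughout. Levels are normalized counts, that is reads divided by 1 factor per library, with no correction for gene length. Slc17a7, the vesicular glutamate transporter of cortical excitatory neurons, was abundant, at 32076, 23012, 43852, 44557 and 34840.3 in ZBTB7A stress and 10938, 48566, 48212, 43733 and 37124 in ZBTB7A control. ZBTB7A control 6 held the lowest of these values. Because the tissue is bulk, fewer cells of a type and less RNA per cell cannot be told apart.

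Zbtb7a (Entrez 16969), the mouse gene of the vector's name, stood at 3899, 3887, 3721, 3743 and 3470 normalized counts in ZBTB7A stress. In ZBTB7A control it stood at 3859, 3955, 3843, 3567 and 3357. The groups overlapped throughout, with a log2 difference of 0.01 (exact two-sided permutation test, p = 0.849, where 5 against 5 libraries allow a smallest p of 0.00794). Both groups also lay inside the range of the GFP libraries, which was 3681 to 4330 in GFP stress and 3033 to 4666 in GFP control. The count of the mouse gene therefore did not set the libraries labelled ZBTB7A apart from those labelled GFP, and the vector here is known from the labels alone. The labels do not say whether the vector's transcript would be counted on the mouse gene. Gfap, the intermediate filament gene whose promoter drives the vector, was 11733, 14078, 19524, 7817 and 6598 in ZBTB7A stress and 18044, 16701, 11154, 5208 and 8427 in ZBTB7A control. It ranged about 3-fold inside each group, and the log2 difference of 0.03 was smaller than that spread (exact two-sided permutation test, p = 0.944).

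ZBTB7A control 6 stood apart from its group. It had 1614 genes more than 2-fold from the mean of the other control libraries, against 147 to 514 for each of the other 9 libraries measured the same way. Its median correlation with its own group, across genes, was 0.964, and that of the others was 0.984 to 0.990. It held the highest levels of the striatal, septal and choroid plexus lists among the 10 libraries and the lowest level of the excitatory neuron list. Some of the results that rest on it are given with and without it, and others are given only with it. ZBTB7A stress 17 was the highest library for the interferon, complement and NF-kB lists, and ZBTB7A control 23 for the blood list.

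With all libraries in 1 limma fit of 4 group means, 0 of 16385 tested genes passed an adjusted p under 0.05 for stress under ZBTB7A (0.0%), and the smallest adjusted p was 0.837. edgeR's quasi-likelihood test of the recovered reads also called 0 genes. DESeq2 called 1 gene, Cartpt (0.00611% of 16372), at a log2 fold change of 1.49 and an adjusted p of 0.00435. At an unadjusted p under 0.05, 177 genes stood higher in ZBTB7A stress (1.08%) and 95 stood lower (0.58%). These genes together were less than 0.05 of those tested. The 5 stress values lay wholly above the 5 control values for 40 genes (0.244%) and wholly below them for 29 genes (0.177%). For a single gene, 0.00794 of all splits of 5 against 5 libraries separate the groups fully in 1 direction or the other. The 2 shares together were below that, so groups without overlap are given below only as a description. Over all tested genes the log2 fold change was above 0 for 52.5% and had a median of 0.01.

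Leaving out ZBTB7A control 6 left 0 genes called by limma but brought 755 genes (4.61%) above and 834 genes (5.09%) below at the unadjusted p. DESeq2 then called 4 genes, namely Cartpt, Ntn1, Slmap and Pdzd2. Leaving out ZBTB7A stress 9 lowered the counts to 95 genes above and 58 below. Leaving out ZBTB7A stress 7 gave 118 and 64 genes, leaving out ZBTB7A stress 26 gave 120 and 75, and leaving out ZBTB7A control 15 gave 100 and 65. Leaving out ZBTB7A control 23 left 63 genes below. No gene was therefore established as different by the limma test at this number of libraries, and the genes below are given as values.

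Cartpt, the precursor of the CART neuropeptides, had the smallest limma p of all tested genes. It stood at 411, 384, 200.2, 299.6 and 466 normalized counts in ZBTB7A stress and at 192, 69.2, 113, 138 and 115 in ZBTB7A control. The lowest stress library lay just above the highest control library, so the groups did not overlap. The means were 352 ± 104 and 126 ± 44.9 (SD, 5 libraries in each group), and the log2 fold change was 1.50 ± 0.30 (SE, limma adjusted p = 0.837), a 2.82-fold difference. It was 1.67 without ZBTB7A control 6 and 1.25 with the striatal level as a covariate, and it lay between 1.30 and 1.69 with any 1 library left out. Within the 3 runs of title numbers the log2 difference was 1.04, 1.17 and 1.56.

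Ntn1 encodes netrin-1, a secreted axon guidance cue. Its values were 542, 562, 460.0, 475 and 793 in ZBTB7A stress, against 402, 262, 287, 280.3 and 318 in ZBTB7A control, again without overlap. Its log2 fold change was 0.86 ± 0.20 (SE), with 0.73 to 0.95 when 1 library was left out. Zbtb7c, a BTB zinc-finger relative of Zbtb7a, stood at 204, 196, 189, 138 and 276 in ZBTB7A stress and 135, 131, 83.4, 128 and 135 in ZBTB7A control. Its groups were separated by only a few counts, and its log2 fold change was 0.70 ± 0.16 (SE). Because Zbtb7c and Zbtb7a are related genes, reads shared between them could be counted on either, which was not tested.

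Stard5, a lipid-binding protein of the START family, stood at 394, 369, 234, 251.6 and 447 in ZBTB7A stress. In ZBTB7A control it stood at 178, 154, 167, 177 and 238. The groups overlapped by 1 control library, ZBTB7A control 24, and the log2 fold change was 0.86 ± 0.24 (SE). Stra6, the cell-surface receptor for vitamin A bound to its plasma carrier, stood at 417, 290.0, 285, 260.5 and 474 in ZBTB7A stress against 220.3, 161, 164, 153 and 324 in ZBTB7A control. ZBTB7A control 24 again reached into the stress range, and the log2 fold change was 0.77 ± 0.25 (SE). Stard5, Stra6, Ntn1 and Cartpt were all highest in ZBTB7A stress 26.

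The other genes of smallest p on this side differed by less. Wnt7a, a secreted Wnt ligand, stood at 538, 508, 374, 477 and 594 in ZBTB7A stress and 481, 357, 279.9, 296 and 411 in ZBTB7A control, with overlapping groups and a log2 fold change of 0.46. Mrpl30, a protein of the large mitochondrial ribosomal subunit, did not overlap, at 622 to 723 in ZBTB7A stress and 542 to 617 in ZBTB7A control. Ugdh, which makes UDP-glucuronate for the sugar chains of the extracellular matrix, did not overlap either, at 505 to 559 against 452 to 504. Their log2 fold changes were 0.22 ± 0.07 and 0.17 ± 0.06 (SE). Cutc, a gene of copper handling, Zfp775, a zinc-finger gene, Slmap, a membrane protein of the STRIPAK complex, and Pdzd2, a PDZ domain protein, had log2 fold changes of 0.30, 0.26, 0.28 and 0.37. Slmap and Pdzd2 were among the highest in ZBTB7A control 6, and without that library they stood at 0.37 and 0.51. Of the larger differences without overlap, Trhr, the receptor for thyrotropin-releasing hormone, stood at 169, 181, 134, 128 and 248.6 in ZBTB7A stress against 83.9, 117, 118, 96.8 and 121 in ZBTB7A control. Kif7, a ciliary kinesin of Hedgehog signalling, stood at 99.2 to 131 in ZBTB7A stress against 78.3 to 96.2 in ZBTB7A control. Zfp879, Kctd14 and Zfp41 also showed no overlap, at log2 fold changes of 0.34, 0.31 and 0.31.

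**Figure D1:**
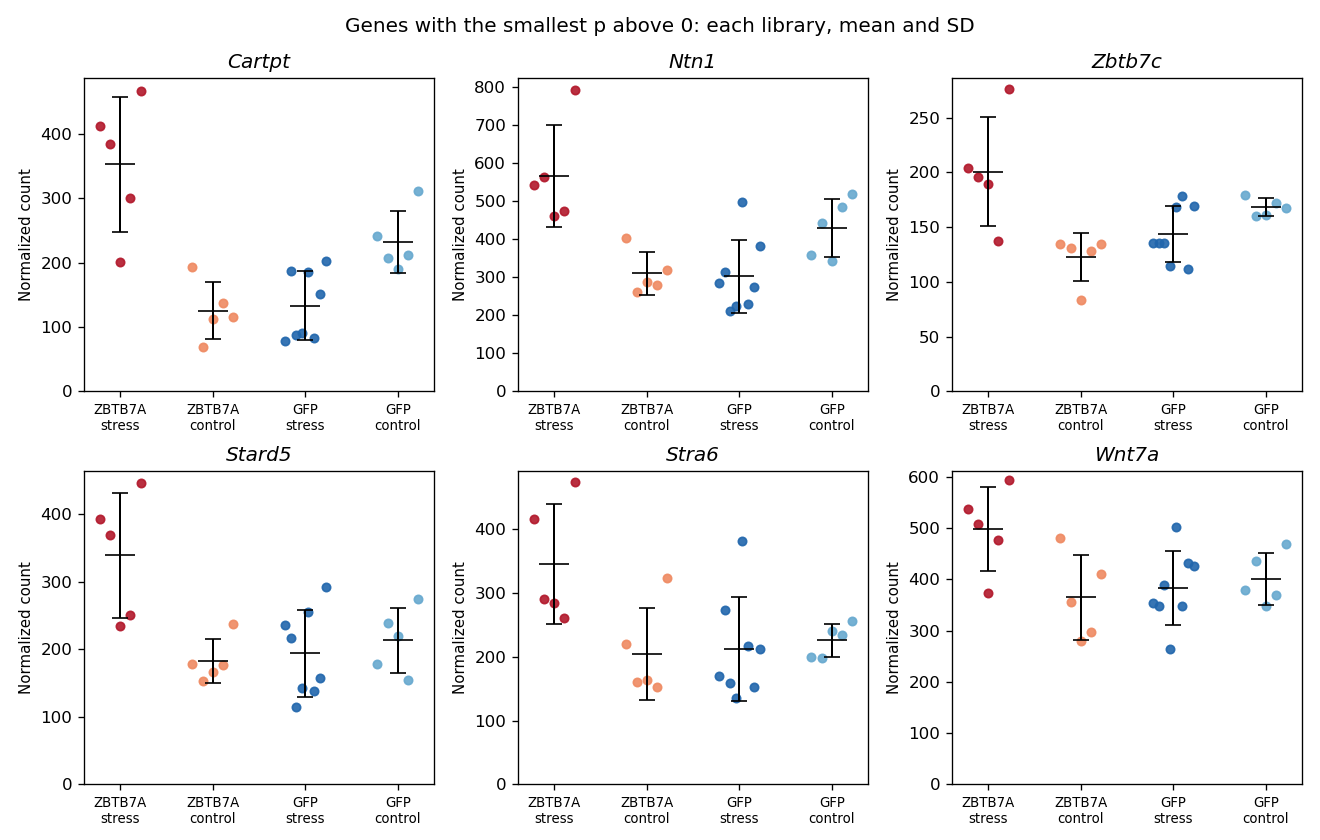
Normalized count (vertical axis, from 0) of 6 genes above 0 in each library of the 4 groups, with the mean (bar) and SD (whiskers) of each group. Cartpt, Ntn1 and Zbtb7c do not overlap between ZBTB7A stress and ZBTB7A control, while Stard5, Stra6 and Wnt7a overlap.

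Promoter sequences from RefSeq (GRCm38.p6) were held for 4 of the 6 genes of smallest p above 0, namely Cartpt, Stard5, Mrpl30 and Stra6, and not for Ntn1 and Zbtb7c. They were searched on both strands for the cAMP response element TGACGTCA, its core TGACG, which lies inside the full element, and the TATA box TATAAA. The cAMP response element is known as a site through which neuronal activity acts. The 250 bases before the start are shown for the 3 genes with a match, from 5′ to 3′ on the gene's strand, with the matched letters in capitals.
Cartpt: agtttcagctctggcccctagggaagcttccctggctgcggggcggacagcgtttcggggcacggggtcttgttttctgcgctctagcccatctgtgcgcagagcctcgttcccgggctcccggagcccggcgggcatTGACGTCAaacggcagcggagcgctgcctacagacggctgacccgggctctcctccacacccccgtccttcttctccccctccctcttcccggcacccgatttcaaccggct
Stard5: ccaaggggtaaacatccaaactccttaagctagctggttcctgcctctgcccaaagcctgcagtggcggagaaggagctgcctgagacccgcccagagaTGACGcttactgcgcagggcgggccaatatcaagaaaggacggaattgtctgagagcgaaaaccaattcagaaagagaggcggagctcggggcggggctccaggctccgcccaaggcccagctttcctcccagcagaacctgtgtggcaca
Mrpl30: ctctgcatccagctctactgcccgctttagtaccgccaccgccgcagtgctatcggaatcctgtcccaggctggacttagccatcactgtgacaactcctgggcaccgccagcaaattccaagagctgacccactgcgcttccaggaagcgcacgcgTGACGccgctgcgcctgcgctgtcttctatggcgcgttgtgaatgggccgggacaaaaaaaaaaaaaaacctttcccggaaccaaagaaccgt
The Cartpt stretch is chr13:99900684-99900933 on the minus strand, and it holds the full cAMP response element from 112 to 105 bases before the start, in which the core lies on both strands. Of 32851 promoters of this length in the same table, 1.55% hold the full element and 17.8% the core. The Stard5 stretch is chr7:83631767-83632016 on the plus strand, with a core match from 151 to 147 bases before the start. The Mrpl30 stretch is chr1:37890227-37890476 on the plus strand, with a core match from 93 to 89 bases before the start. The TATA box letters occur in 12.4% of the promoters and not in these 4 windows. These are matches of letters and not measured sites.

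Below 0, no gene differed by as much as Cartpt among those of smallest p. Myo5c, an unconventional myosin, stood at 79.2, 56.0, 63.4, 83.6 and 73.0 in ZBTB7A stress and 94.4, 78.3, 121, 113 and 99.8 in ZBTB7A control. ZBTB7A control 14 alone reached into the stress range, and the log2 fold change was -0.51 ± 0.16 (SE). Zfp57, a zinc-finger protein that keeps methylation at imprinted genes, stood at 176, 185, 190.1, 235 and 194 in ZBTB7A stress against 217, 266, 328, 274 and 222 in ZBTB7A control. ZBTB7A stress 25 overlapped the controls, and the log2 fold change was -0.40 ± 0.14 (SE). Kcnh5, a voltage-gated potassium channel, stood at 252.1, 326, 385, 365 and 270.5 in ZBTB7A stress and 372, 387, 549, 476 and 426 in ZBTB7A control, with a log2 fold change of -0.47. Cdh20, a cadherin, had a log2 fold change of -0.36, with overlap.

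Srrm4os, named as a transcript opposite Srrm4, had a log2 fold change of -0.78, but counting that uses strand is not given in the sources used here and reads of the pair cannot be told apart. Minar1 and Btbd8 had log2 fold changes of -0.45 and -0.38. Ssh2, a phosphatase that activates the actin-severing protein cofilin, Trafd1, a regulator of innate immune signalling, and Dhx33, an RNA helicase, had -0.16, -0.14 and -0.18. Among genes with no overlap, Mei1, known from meiosis, stood at 81.2, 72.5, 91.8, 86.2 and 92.2 in ZBTB7A stress and 114, 96.3, 137, 120.1 and 94.6 in ZBTB7A control. Wnt2b, another Wnt ligand, stood at 102, 87.3, 96.4, 87.1 and 83.9 in ZBTB7A stress against 128, 123, 115, 103 and 112 in ZBTB7A control, so its groups were 1 to 2 counts apart at the nearest. Eno3, the enolase of muscle, Palmd, Zfp791, Echdc1 and Cd83, a surface protein of immune cells, also showed no overlap, at log2 fold changes from -0.23 to -0.21.

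**Figure D2:**
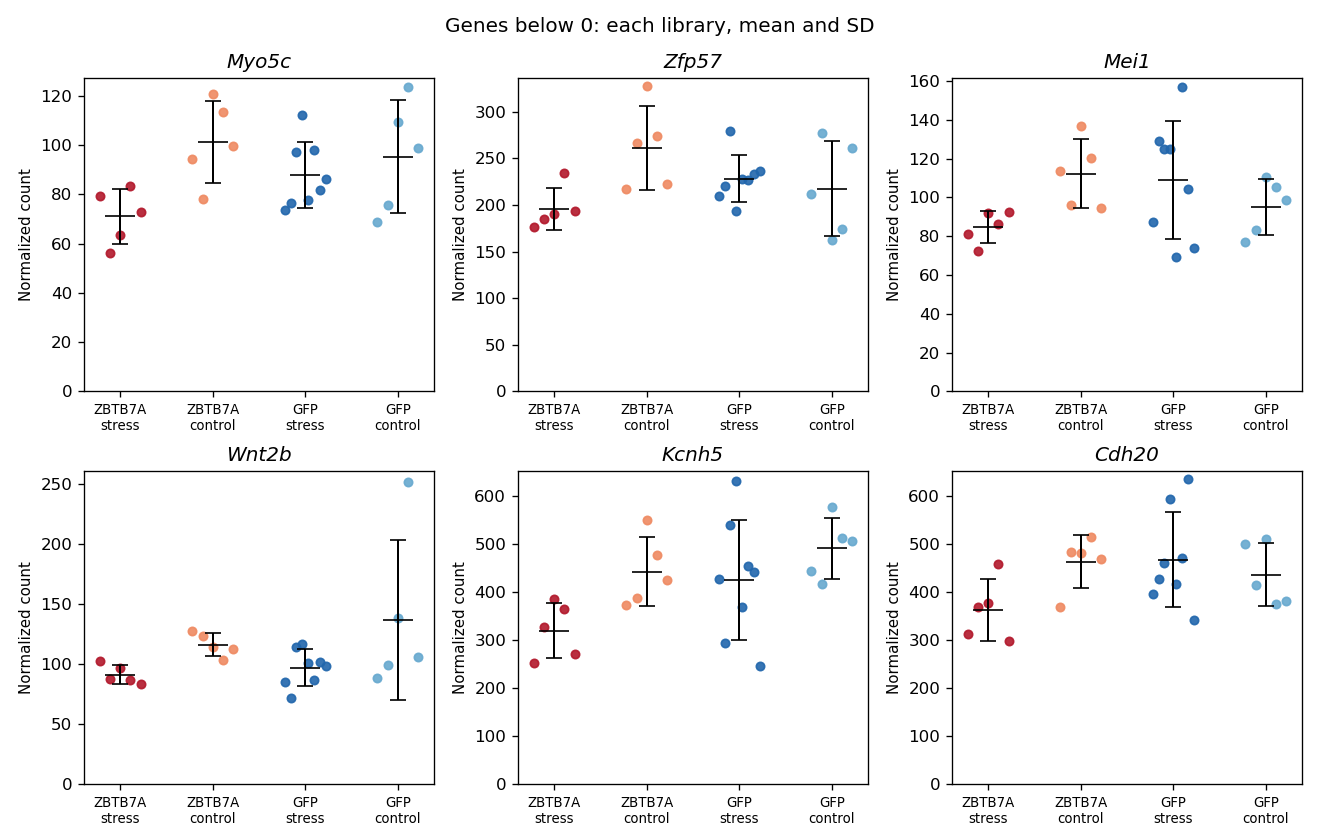
Normalized count (vertical axis, from 0) of 6 genes below 0 in each library of the 4 groups, with the mean (bar) and SD (whiskers) of each group. Mei1 and Wnt2b do not overlap between ZBTB7A stress and ZBTB7A control, and the other genes overlap by 1 or 2 libraries.

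Genes of striatal medium spiny neurons, the main neurons of a region that lies near the OFC, stood higher in ZBTB7A stress in all 28 tested members. Their median log2 fold change was 0.83, against 0.01 over all tested genes, with 1 member at an unadjusted p under 0.05 and 0 without overlap. The list's level, averaged over members after each was centred on the log2 scale, was 1.31, 1.47, 0.10, 0.45 and 0.95 in ZBTB7A stress. In ZBTB7A control it was 1.87, -0.13, -1.07, -0.18 and -0.08. ZBTB7A control 6 was thus the highest of the 10 libraries, while the other control libraries were below every stress library. Without it the median was 1.25, with 14 members above 0 at an unadjusted p under 0.05 (background 4.61%) and 19 of 28 without overlap (67.9%, against 2.29% of all tested genes). Leaving out the 1 control above the stress libraries itself favours such separation. Members of the list also move together and are not replicates, so these counts are a description and not a test. The median was 0.46 without ZBTB7A control 15. Drd1, the D1 dopamine receptor, stood at 2694, 3101, 1252, 1610.1 and 2512 in ZBTB7A stress and 3462, 1127, 554, 922 and 1139 in ZBTB7A control (log2 fold change 0.84, and 1.23 without ZBTB7A control 6). Dlk1 and Tac1, which encodes the tachykinin substance P, had log2 fold changes of 1.47 and 1.00.

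The genes above were compared with this level, since it moved with the groups. With it as a covariate the log2 fold change of Ntn1 was 0.65, of Zbtb7c 0.60, of Stard5 0.64 and of Stra6 0.61, and that of Myo5c was -0.42 and of Zfp57 -0.38. The median of the striatal list itself was then -0.02, which is near 0 by construction because the covariate is the mean level of those genes. With 3 tissue levels as covariates Ntn1 was 0.63, Zbtb7c 0.60, Stard5 0.63 and Stra6 0.60, and Myo5c was -0.43 and Zfp57 -0.39.

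Neurons of the septum and other subcortical nuclei followed a like order of libraries. Of 27 members, 22 were above 0 and 5 below, with a median log2 fold change of 0.24, and of 0.71 without ZBTB7A control 6. Nts, the precursor of neurotensin, stood at 111, 254, 51.4, 88.9 and 166 in ZBTB7A stress and 295, 16.6, 10.4, 22.2 and 48.4 in ZBTB7A control. All 5 stress libraries exceeded all controls other than ZBTB7A control 6, which was highest of all. The log2 fold change was 1.67 ± 0.78 (SE), and 2.42 without that library. Oprk1, the kappa opioid receptor, and Nnat, the imprinted neuronatin gene, had 0.58 and 0.37.

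Of 16 choroid plexus and ependymal genes, 11 were above 0 and 5 below, with a median of 0.18, and of 0.62 without ZBTB7A control 6. Members went opposite ways. Ttr, the transthyretin gene that the choroid plexus expresses most, stood at 27.1, 9.89, 12.9, 4.45 and 6.25 in ZBTB7A stress against 449, 21.1, 87.8, 162 and 165 in ZBTB7A control. ZBTB7A stress 7 and ZBTB7A control 14 overlapped, and the log2 fold change was -3.43 ± 1.30 (SE), the lowest of all tested genes. Kl, which encodes klotho, the co-receptor for FGF23, stood at 123, 93.9, 71.6, 80.0 and 165 in ZBTB7A stress and 56.0, 37.6, 41.7, 66.7 and 108 in ZBTB7A control (log2 fold change 0.81 ± 0.33, SE). Clic6 had 1.25, with ZBTB7A control 6 highest at 389.9. Myelin and oligodendrocyte genes were above 0 in all 24 members, with a median of 0.22 that ranged from 0.05 without ZBTB7A control 23 to 0.42 without ZBTB7A control 6. Olig1, a lineage transcription factor, and Mal, a myelin protein, had log2 fold changes of 0.21 and 0.30. Olfactory bulb and neuroblast genes had 14 members above 0 and 7 below, with a median of 0.15 and Sox11 at 0.35.

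**Figure D3:**
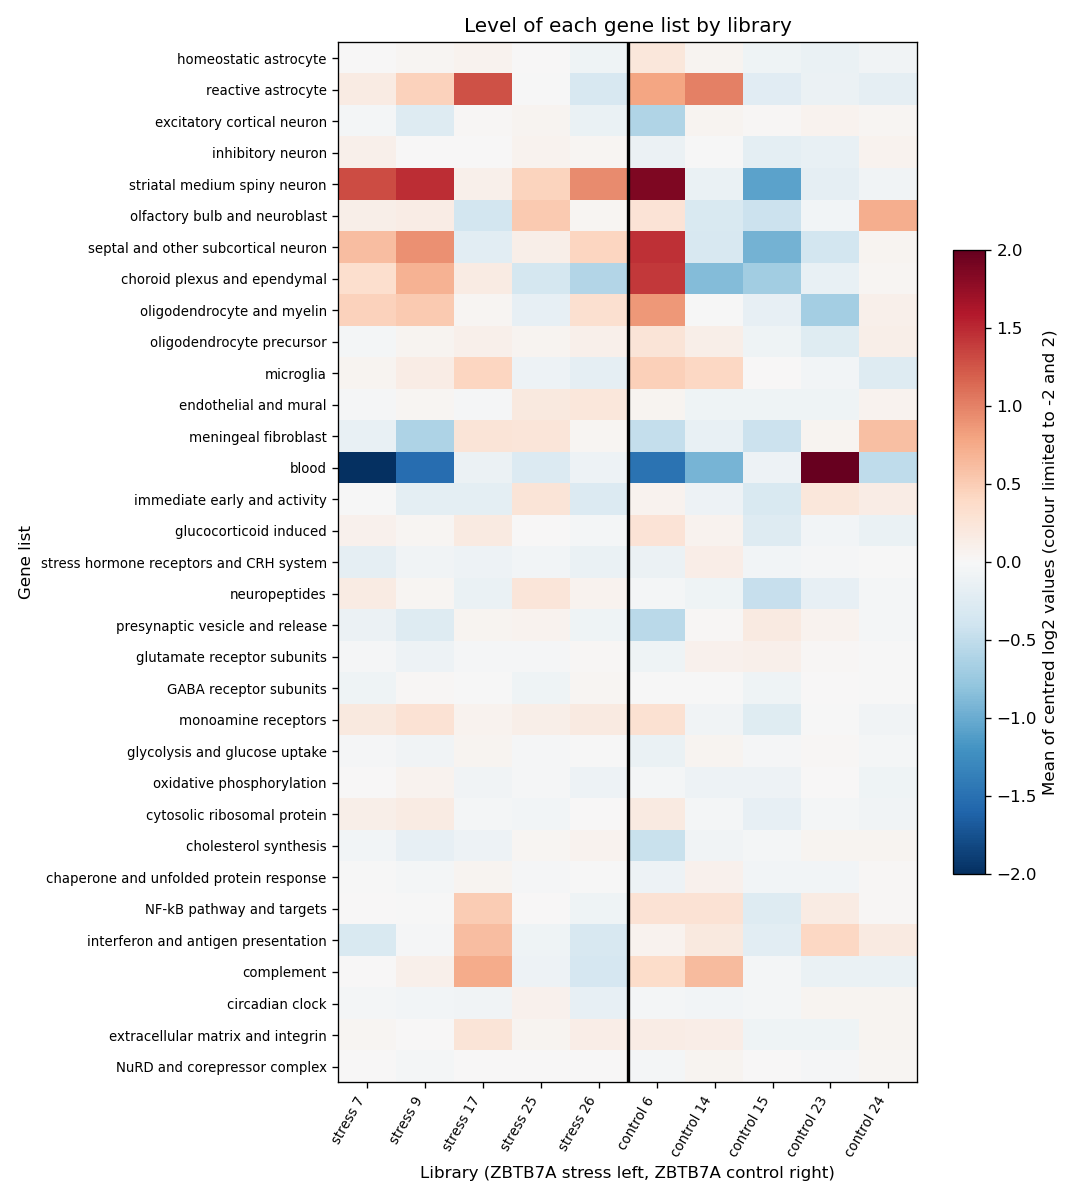
Level of each gene list (rows) in each ZBTB7A library (columns, stress left of the line and control right), averaged over members centred on the log2 scale, with colour limited to -2 and 2. The striatal row is red in all 5 stress libraries and reddest in ZBTB7A control 6, and the blood row is dark red in ZBTB7A control 23.

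Neuropeptide genes divided evenly, with 12 above 0 and 13 below and a median of -0.01. At an unadjusted p under 0.05 stood 5 members above 0, Cartpt, Pdyn, Cort, Nts and Sst, and 1 below, of 25 tested, where 1.08% of all tested genes stood above and 0.58% below at that p. Without ZBTB7A control 6 there were 5 members above and 5 below, where 4.61% and 5.09% of all tested genes stood so. Pdyn, the dynorphin precursor, stood at 965, 877, 460.0, 579.7 and 1003 in ZBTB7A stress and 899, 399, 237, 360.4 and 379 in ZBTB7A control (log2 fold change 0.86 ± 0.33, SE). It belongs to the striatal list too, and ZBTB7A control 6 lay inside the stress range. Without that library the log2 fold change of Pdyn was 1.14. Cort, the cortistatin gene of some inhibitory neurons, stood at 232, 159.8, 173, 152 and 196 against 73.4, 215, 113, 149.6 and 119. Its log2 fold change was 0.51, and 0.32 without ZBTB7A control 6. Sst, the somatostatin gene, stood at 5582, 4810.1, 4667, 4259 and 4177 against 3446, 4667, 4111, 4272 and 3586 (log2 fold change 0.23, and 0.17 without ZBTB7A control 6). With all libraries the member below 0 was Grp, gastrin-releasing peptide, at a mean of 135 ± 44.9 in ZBTB7A stress and 196 ± 75.6 in ZBTB7A control. It was picked out after its values were seen.

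Inhibitory neuron genes had 12 members above 0 and 9 below, with a median of 0.09 that was 0.00 without ZBTB7A control 23. Gad2, which makes GABA, had a log2 fold change of 0.46 ± 0.22 (SE), and was highest in ZBTB7A control 6 at 9851. Without that library its log2 fold change was 0.68. Excitatory cortical neuron genes had 12 members on each side and a median of -0.02, but -0.27 without ZBTB7A control 6, with 8 members above and 16 below. Slc17a7 had a log2 fold change of 0.05, which was -0.35 without that library. Foxp2 and Tle4, transcription factors of deep-layer neurons, and Cux2, an upper-layer factor, had log2 fold changes of 0.62, 0.28 and -0.47. These genes were taken by the naming rule. Other deep-layer and upper-layer genes of the list are not reported here, and a difference between layers was not tested. Foxp2 is also expressed in striatal neurons, and its difference was 0.28 with the striatal level as a covariate.

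Genes that answer to stress hormones showed small differences. Nr3c1, the glucocorticoid receptor, was 2446, 2585, 2588, 2690.3 and 2605 in ZBTB7A stress against 2238, 2489, 2742, 2701 and 2805 in ZBTB7A control, with overlap and a log2 fold change of -0.00 ± 0.07 (SE). Of 23 glucocorticoid-induced genes, 16 were above 0 and 7 below, with a median of 0.09 and 0 at an unadjusted p under 0.05. Fkbp5, a chaperone that dampens the glucocorticoid receptor, stood at 870.1, 761, 708, 749 and 816 in ZBTB7A stress and 874, 552, 473, 679 and 777 in ZBTB7A control. ZBTB7A control 6 held its highest value, and the log2 fold change was 0.25, or 0.35 without that library. Tgm2 and Zbtb16 had 0.33 and -0.34. Among 18 receptors and peptides of the stress hormone system 4 were above 0 and 14 below, with a median of -0.03. Crhr1, the main receptor of corticotropin-releasing hormone, Oxtr, the oxytocin receptor, and Adcyap1, the PACAP precursor, had log2 fold changes of -0.38, -0.46 and -0.42. For Oxtr, ZBTB7A control 14 was the highest of the 10 libraries. It held 351 recovered reads of the gene against 148 in ZBTB7A control 15, at depths of 15.3 and 15.5 M.

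Immediate early genes, which neurons switch on with activity, were above 0 in 10 members and below in 22, with a median of -0.07. Fos stood at 601, 618, 567, 1123 and 573 in ZBTB7A stress and at 815, 704, 517, 1185 and 962 in ZBTB7A control. ZBTB7A stress 25 stood alone among the stress libraries, and the log2 fold change was -0.26 ± 0.29 (SE). Dusp6, Inhba and Gadd45b had -0.30, 0.34 and 0.15. Tissue was taken 7 days after the stress and after the behaviour tests. Core clock genes were above 0 in 5 members and below in 16, with a median of -0.04, and Arntl, Hlf and Cry1 had -0.21, -0.13 and 0.17.

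Medians of the 2 astrocyte lists were near 0. The level of the reactive list varied widely, with an SD of 0.61 in ZBTB7A stress and 0.59 in ZBTB7A control. A small difference in that list could therefore not be resolved. Homeostatic astrocyte genes had 19 members above 0 and 11 below, with a median of 0.03 and a range from -0.13 to 0.12, and Slc4a4, a bicarbonate transporter, and Gjb6, a connexin, had 0.12 and -0.13. Reactive astrocyte genes had 18 above and 12 below, with a range from -0.25 to 0.67. Their median of 0.04 was -0.13 without ZBTB7A stress 17 and 0.17 without ZBTB7A control 6. Lcn2, a secreted lipocalin strongly induced in reactive astrocytes, was 156, 280.1, 1761, 187 and 95.4 in ZBTB7A stress and 477, 1308, 34.2, 286 and 25.4 in ZBTB7A control. It was thus above 1000 in 1 library of each group, ZBTB7A stress 17 and ZBTB7A control 14. Corepressor and NuRD complex genes, partners of ZBTB7A, had 8 members above 0 and 14 below, with a median of -0.02 and a range from -0.11 to 0.09. Mta2 and Hdac2, both among the fewer members above 0, had 0.08 and 0.09.

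Microglia genes had 5 members above and 20 below, with a median of -0.05, but 17 above and 8 below without ZBTB7A control 6, with a median of 0.04. Siglech, Cx3cr1 and Irf8 had -0.11, -0.09 and -0.21. Interferon and antigen presentation genes had 8 above and 23 below, with a median of -0.17, and 2 of 31 members at an unadjusted p under 0.05, both below 0 (background 0.58%). Nlrc5, which switches on MHC class I genes, stood at 42.1, 29.7, 67.03, 32.9 and 30.2 in ZBTB7A stress against 75.2, 72.2, 38.7, 94.0 and 61.1 in ZBTB7A control. ZBTB7A stress 17 and ZBTB7A control 15 crossed, and the log2 fold change was -0.76 ± 0.30 (SE). Igtp, an interferon-induced GTPase, and Tap1, a peptide transporter, had -0.41 and -0.33. The list's level was 0.62 in ZBTB7A stress 17 and -0.32 to -0.02 in the other stress libraries, against -0.21 to 0.41 in ZBTB7A control, and its median was -0.32 without ZBTB7A stress 17. NF-kB genes had 12 members on each side and a median of -0.00, with Nfkbie, an inhibitor, at -0.23 and Relb, a subunit, at 0.18. Complement genes had 7 above and 12 below, with a median of -0.02, which was -0.19 without ZBTB7A stress 17, 0.03 without ZBTB7A control 6 and 0.11 without ZBTB7A control 14.

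Vessel genes were above 0 in 23 of 25 members, with a median of 0.11, and 0 members at an unadjusted p under 0.05. Tek, the angiopoietin receptor of endothelial cells, stood at 342, 376, 368, 434 and 386 in ZBTB7A stress against 330.5, 339, 353, 334 and 337 in ZBTB7A control. Only ZBTB7A stress 7 and ZBTB7A control 15 crossed, and the log2 fold change was 0.17 ± 0.09 (SE). Notch3 and Rgs5, both of mural cells, had 0.24 and 0.18. Matrix and integrin genes had 17 above and 11 below, with a median of 0.08, and Lamb1 and Itga5 had 0.27 and 0.47. Meningeal fibroblast genes had 13 above and 9 below, with a median of 0.07, and Col1a1 reached 2008 in ZBTB7A control 23 against 160 to 406 in the other ZBTB7A libraries. Blood genes were below 0 in all 7 members, with a median of -0.96 that was -0.17 without ZBTB7A control 23. Alas2, the first enzyme of haem synthesis in red cells, stood at 33.1 to 100.1 in ZBTB7A stress and at 40.2, 36.1, 70.0, 649 and 160.3 in ZBTB7A control.

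Among synaptic genes, presynaptic release genes had 7 members above 0 and 21 below, with a median of -0.04, and of -0.18 without ZBTB7A control 6. Without that library 1 member stood above 0 and 9 below at an unadjusted p under 0.05, where 4.61% and 5.09% of all tested genes did. Cplx2 and Sv2c, both among the fewer members above 0, had 0.13 and 0.50. Glutamate receptor subunits had 11 above and 13 below, with a median of -0.04, and Grm2, a presynaptic metabotropic receptor, stood at -0.46. GABA receptor subunits had 6 above and 10 below, with a median of -0.02 and a range from -0.26 to 0.36. Gabrd, among the fewer members above 0, stood at 0.15. Monoamine receptors had 15 above and 13 below, with a median of 0.01, and Drd3, Drd5 and Adra2b stood at 1.56, 0.30 and 0.97. Drd3 was 61.6, 44.5, 38.6, 33.8 and 94.9 in ZBTB7A stress and 68.2, 9.03, 5.96, 16.1 and 19.6 in ZBTB7A control, so all controls other than ZBTB7A control 6 lay below the stress libraries. Oligodendrocyte precursor genes had 9 above and 7 below, with a median of 0.03, and Pcdh15, a protocadherin, stood at -0.25.

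Metabolic and housekeeping genes differed by little in size. Cytosolic ribosomal protein genes were above 0 in 37 of 39 members, with a median of 0.07, and Rpl10a, Rps15 and Rplp1 had 0.12, 0.13 and 0.13. These genes have many processed copies in the genome, and how reads were shared among them is not given in the sources used here. Oxidative phosphorylation genes were above 0 in 32 of 39 members, with a median of 0.04, and Uqcrq and Ndufa1 had 0.12 and 0.16. Neither list had a member at an unadjusted p under 0.05. Cholesterol synthesis genes had 19 above and 5 below, with a median of 0.05, but 6 above and 18 below without ZBTB7A control 6, with a median of -0.05. Dhcr7, the last enzyme of the pathway, had 0.17, and 0.12 without ZBTB7A control 6. Glycolysis and glucose uptake genes had 9 above and 15 below, with a median of -0.00. Slc16a3, a lactate transporter, had 0.51, the highest of the list, whose lowest was -0.19. Chaperone and unfolded protein response genes had 14 above and 12 below, with a median of 0.01. Trib3, a pseudokinase induced by stress of the endoplasmic reticulum, stood at 52.6, 41.2, 39.5, 25.8 and 52.1 in ZBTB7A stress against 35.0, 31.6, 8.93, 21.1 and 28.3 in ZBTB7A control (log2 fold change 0.82 ± 0.37, SE).

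**Figure D4:**
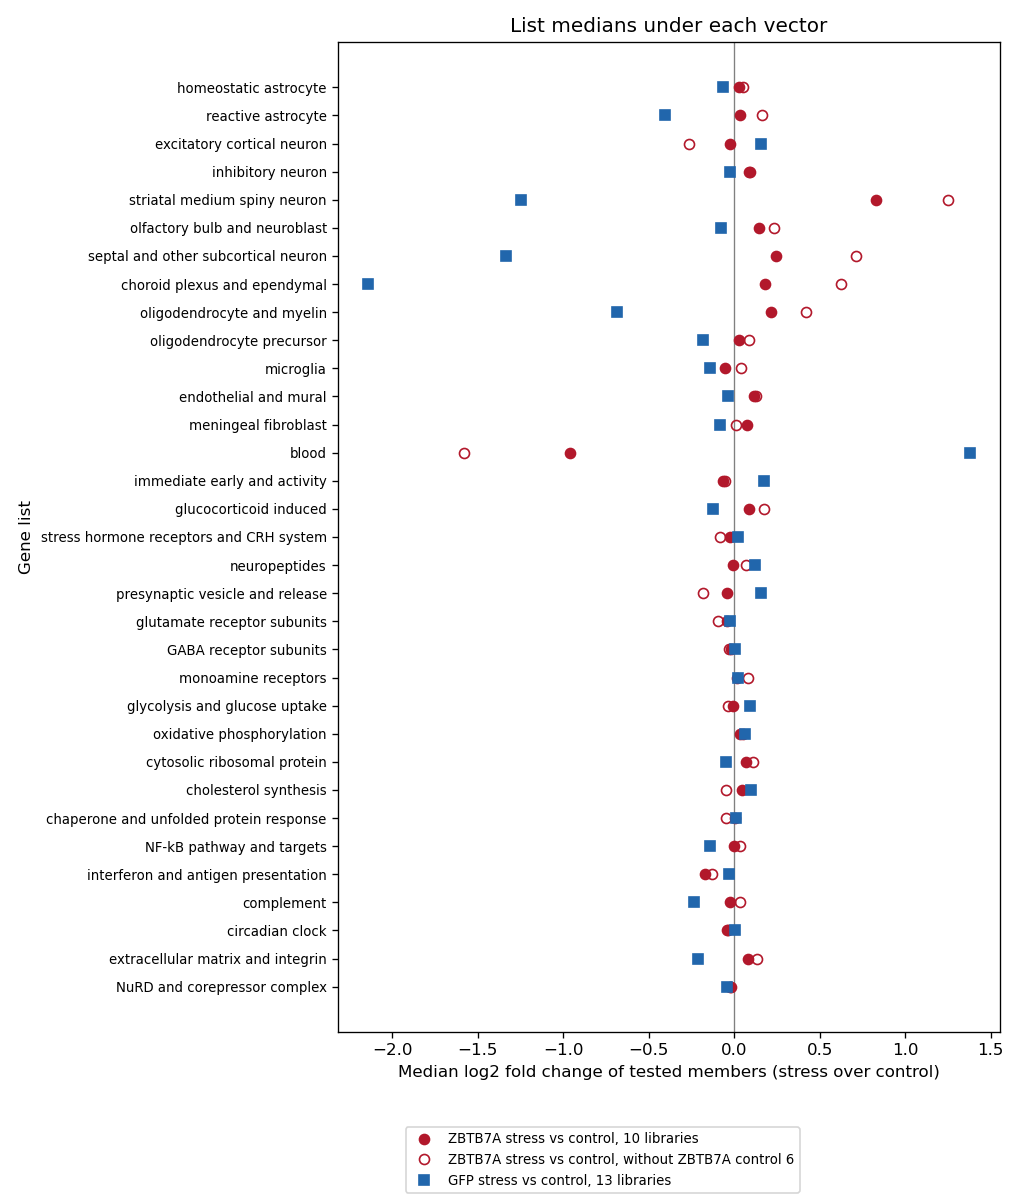
Median log2 fold change of the tested members of each list (horizontal axis) for ZBTB7A stress over ZBTB7A control with all 10 libraries (filled circles), without ZBTB7A control 6 (open circles) and for GFP stress over GFP control (squares). The striatal median is 0.83 and 1.25 under ZBTB7A and -1.25 under GFP.

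The stress difference under ZBTB7A was set against that under GFP, which shares no library with it. Under GFP, limma called 0 genes (0.0%), with 535 above (3.27%) and 1304 below (7.96%) at an unadjusted p under 0.05, and DESeq2 called 39 (0.238%). The test of the difference between the stress effects called 0 genes by limma (0.0%), with 1216 at an unadjusted p under 0.05 (7.42%), and 3 by DESeq2 (0.0183%), namely Cartpt, Ntn1 and Kl. Without ZBTB7A control 6 limma called 79 genes for it, and without ZBTB7A stress 17 it called 1, Cartpt. With the striatal level as a covariate it called 0, both with all libraries and without ZBTB7A control 6. Since Zbtb7a did not set the libraries labelled ZBTB7A apart, the direction of this comparison rests on the labels.

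Cartpt stood lower after stress under GFP, at 78.8 to 202 (median 120.5) in GFP stress and 191 to 310.4 (median 211) in GFP control. The log2 fold change was 1.50 under ZBTB7A and -0.88 under GFP, a difference of 2.38 (limma adjusted p = 0.0976, DESeq2 adjusted p = 6.42e-05). Ntn1 was 210.0 to 497 (median 279) in GFP stress and 344 to 518 (median 441) in GFP control, and the difference between the vectors was 1.40 (limma adjusted p = 0.261, DESeq2 adjusted p = 0.00737). For Kl the difference was 2.002, for Zbtb7c 0.94, for Pdzd2 0.72 and for Cald1, an actin-binding protein, 0.61, and limma adjusted p was 0.67 for each of these 4 genes. The ZBTB7A control values of Cartpt, Ntn1 and Zbtb7c lay mostly below the GFP control values, as the plot of genes above 0 shows.

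Of the 33 lists, 23 had medians of opposite sign under the 2 vectors and 10 had the same sign. Among the 10 were microglia at -0.05 under ZBTB7A and -0.14 under GFP, and cholesterol synthesis at 0.05 and 0.10. Without ZBTB7A control 6 these 2 medians under ZBTB7A were 0.04 and -0.05, so their sign then differed from that under GFP. The striatal median was 0.83 under ZBTB7A and -1.25 under GFP, where 28 of 28 members were below 0, and 25 of 28 members had an unadjusted p under 0.05 for the difference (background 7.42%). The septal median was 0.24 under ZBTB7A and -1.34 under GFP, the choroid plexus median 0.18 and -2.14, and the oligodendrocyte median 0.22 and -0.68. Ttr stood below 0 under both vectors, at -3.43 and -5.37. Across all tested genes the log2 fold changes under ZBTB7A and GFP were related at a Pearson r of -0.37 and a Spearman rho of -0.26, and 57.8% of genes had opposite signs. Genes are not independent replicates, and the points share the tissue levels of the libraries. With the striatal level as a covariate r was -0.08 and 50.7% of signs were opposite, and without ZBTB7A control 6 r was -0.60.

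**Figure D5:**
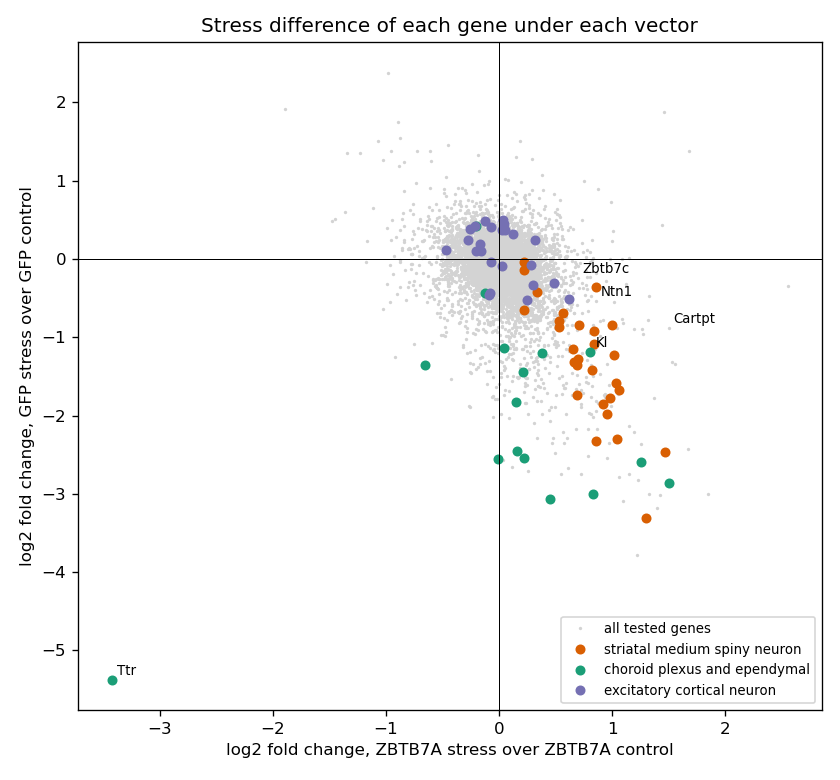
Log2 fold change of each tested gene (grey points) for ZBTB7A stress over ZBTB7A control (horizontal axis) and GFP stress over GFP control (vertical axis), with 3 lists coloured. Striatal genes (orange) lie to the lower right, and Ttr stands alone at -3.43 and -5.37.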

How the data were processed

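The values come from 23 columns of normalized counts that the authors deposited, a signal made by dividing each library's reads by its own size factor. The aligner HISAT2 2.1.0, the counter featureCounts 2.0.1 and the package DESeq2 2.11.40.6 are named per the submitters' processing notes, with the builds mm10 and mm9 and no role for either. RNA came from Trizol and a column clean-up, and library preparation used TruSeq RNA V2, per the labels' protocols. In each library 100% of values were whole reads within 0.02 reads, so reads were recovered, at 12.5 to 44.9 M (units of 1e6) in the ZBTB7A libraries. Intervals and SE cover the spread between libraries, and how deep a library was sequenced limits genes of low count.

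Of 27606 entries, 428 identical repeats were removed, leaving 27178 genes. Those with 10 or more normalized counts in at least 5 libraries, 16385 in all, were tested as log2 of the value plus 1. limma 3.58.1 (R 4.3.3, trended and robust empirical Bayes) fitted 4 group means over all 23 libraries, two-sided, with Benjamini-Hochberg adjustment and calls at an adjusted p under 0.05. The log2 fold change is stress over control and understates low genes. Members and lists were chosen with earlier results of these data known, so lists are described by counts and medians with no test. Of 33 lists, members without a match in the table stayed out. The rule for named genes took a fixed panel (Zbtb7a, Gfap, Nr3c1, Fkbp5, Fos, Slc17a7, Lcn2, Drd1 and Ttr), the 12 genes of smallest p and the 8 of largest log2 fold change without overlap in each direction, 3 members of each list and 6 for the difference between vectors, with a mean of 50 or more outside the panel and lists. It took 138 genes, and some of them are not reported here.

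Alternatives were DESeq2 1.42.0 and edgeR 4.0.16 (both on recovered reads), TMM scaling, adding 5 before the log, testing every gene, testing only means of at least 50, no robust option, array weights, an adjusted p under 0.1, only the 10 libraries, covariates (the striatal level, 3 tissue levels or the run of title numbers), and each library left out. Title numbers run through the groups 3 times, which the labels do not call a batch. Fits with edgeR, DESeq2 and the striatal covariate without ZBTB7A control 6, the fit without it and ZBTB7A stress 17, and recovered reads as a covariate were added after the data were seen. The ZBTB7A libraries were compared in pairs by chi-square and none agreed within sampling noise. Python 3.11.15, pandas 2.3.3, numpy 2.4.6, scipy 1.17.1 and matplotlib 3.10.9 were used.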

Additional observations from a re-analysis of the deposited data

Results flagged for a closer look

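Within the 5 libraries of each group, 1 library was set apart when its gap to the nearest other exceeded Dixon's critical value. Of 282 such tests of named genes and list levels, 20 were past it, and chance alone gives about 1 in 20. ZBTB7A control 6 held 7 of them. They were Slc17a7 at 10938, Cdh20 at 368.9, Cux2 at 968.6, Adcyap1 at 132.9 and Sv2c at 1694 normalized counts, the excitatory cortical neuron level at -0.60 and the cholesterol synthesis level at -0.44. ZBTB7A control 15 stood apart for Zbtb7c at 83.38, Kctd14 at 55.09 and Nfkbie at 53.6 normalized counts and for the GABA receptor subunit level at -0.086. ZBTB7A control 23 stood apart for Col1a1 at 2008 normalized counts and for the blood level at 4.44, and ZBTB7A control 24 for Siglech at 368.5.

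Among stress libraries, ZBTB7A stress 17 stood apart for Tap1 at 172.6 and Cry1 at 397.6 normalized counts and for the NF-kB level at 0.51. ZBTB7A stress 25 stood apart for Fos at 1123, ZBTB7A stress 7 for Rpl10a at 1002, and ZBTB7A stress 9 for the corepressor and NuRD level at -0.038. Which property of these libraries moved with them was not tested.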

How the results depend on the processing

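For stress under ZBTB7A, limma and edgeR called 0 genes under the alternatives run, DESeq2 called 1, and DESeq2 without ZBTB7A control 6 called 4. For the difference between vectors the 0 calls became 3 with DESeq2, 2068 with array weights, 1 with 3 tissue levels, 1 at an adjusted p under 0.1, 0 to 79 with 1 library left out, 172 with edgeR and 977 with DESeq2 without ZBTB7A control 6, and 428 without it and ZBTB7A stress 17, but stayed 0 with the striatal level as a covariate, with all libraries and without ZBTB7A control 6. For stress under GFP they became 39 with DESeq2, 668 with array weights and 1 with 3 tissue levels. Of genes at an unadjusted p under 0.05, 177 above and 95 below, the counts were 348 and 217 with no filter, 1113 and 1044 with array weights, and 95 to 755 and 58 to 834 with 1 library left out. Without ZBTB7A control 6 they were 817 and 784 with edgeR and 819 and 863 with DESeq2, and without it and ZBTB7A stress 17 they were 898 and 1085. Those below were 59 at a mean of 50 or more and 56 with the striatal level.

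List medians moved for excitatory neurons (-0.27 without ZBTB7A control 6, to 0.046 without ZBTB7A control 23), for inhibitory neurons (-0.0013 without ZBTB7A control 23, to 0.14 without ZBTB7A control 24), and for GABA receptors, to 0.040 with the striatal level and 0.036 with 3 tissue levels. Medians of 16 of 33 lists changed sign with at least 1 of the libraries left out. With 1 library left out the median ranged from -0.030 to 0.24 for meningeal fibroblasts, 0.026 to 0.24 for olfactory bulb, -0.028 to 0.052 for homeostatic astrocytes, -0.036 to 0.62 for choroid plexus, 0.035 to 0.18 for glucocorticoid-induced genes and -0.20 to -0.039 for immediate early genes. Log2 fold changes near 0 turned sign. Zbtb7a was -0.0021 with 3 tissue levels and -0.024 to 0.039 with 1 library left out. Gfap was -0.17 with the striatal level, -0.11 with 3 tissue levels, -0.047 with the striatal level without ZBTB7A control 6, and -0.23 to 0.22 with 1 library left out. Nr3c1 was 0.037 and 0.039 with the striatal level and with 3 tissue levels and -0.055 to 0.027 with 1 library left out, or -0.056 without ZBTB7A control 6 and ZBTB7A stress 17. Slc17a7 was -0.077 with edgeR, -0.081 with DESeq2, -0.21 with array weights, -0.012 with recovered reads as a covariate and -0.35 to 0.20 with 1 library left out. Without ZBTB7A control 6 it was -0.31 with edgeR, -0.32 with DESeq2, -0.21 with the striatal level and -0.43 when ZBTB7A stress 17 was left out too. In that fit with the striatal level Fos was 0.090 and Drd1, itself a member of the striatal list, -0.028. Adcyap1 was 0.043 with the striatal level and 0.020 with 3 tissue levels. With 1 library left out Lcn2 was -0.070 to 1.34 and Col1a1 -0.74 to 0.064, and Col1a1 was -0.88 without ZBTB7A control 6 and ZBTB7A stress 17. The cause of these shifts was not tested. No paired analysis was possible because the groups share no title number. Counts of 5 libraries a group limit what could be called.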

Other observations

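Chaperone genes were also compared without ZBTB7A control 6, a list picked out after the values were seen. Without that library 5 of 26 members had stress values wholly below the control values (19.2%, against 1.89% of all tested genes), and 1 stood wholly above. By an unadjusted p under 0.05, 2 members then stood below and 1 above, where 5.09% and 4.61% of all tested genes did. The list median was then -0.05. Hspa5, the main chaperone of the endoplasmic reticulum, stood at 4388, 4472, 4488, 4492 and 4486 normalized counts in ZBTB7A stress and 4476, 4658, 4732, 4667 and 4887 in ZBTB7A control. Hspa8, a constitutive cytosolic chaperone, stood at 7590.3, 7913, 8749, 8929 and 8668 against 6847, 9336, 9417, 9319.9 and 9395. Pdia6, a disulfide isomerase, stood at 1731, 1730.2, 1797, 1794 and 1789 against 1640.1, 2000.0, 2044, 1809.8 and 1872. Each log2 fold change over all 10 libraries was small, at -0.07, -0.07 and -0.08.

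Receptors gave a mixed list in the same way. Hrh1, the H1 histamine receptor, stood at 319.8, 265, 366, 380.5 and 329 in ZBTB7A stress and 245, 424, 419.9, 428 and 433 in ZBTB7A control, while Drd2, the D2 dopamine receptor, stood at 2173, 2335, 814, 997 and 1485 against 3355, 628, 204, 585 and 646. In both genes ZBTB7A control 6 lay on the far side of the stress libraries from the other controls. Of the 138 genes that the naming rule took, the 30 not named in the text had log2 fold changes from -1.89 to 0.47.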
